A study of Mus musculus with 2 samples.

Results

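The clustered protocadherins are 58 genes of mouse chromosome 18, laid out in 3 neighbouring arrays: 14 Pcdha, 22 Pcdhb and 22 Pcdhg genes. They were taken by name from the GENCODE M21 annotation, which has 21755 protein-coding genes over chromosome X and autosomes 1 to 19. All 58 are transcribed from the plus strand. CTCF binding was measured by ChIP-seq, the sequencing of DNA bound to an immunoprecipitated protein, in heart of newborn mice of strain B6NCrl at postnatal day 0. There were 2 libraries of a single group, here called replicate 1 and replicate 2. The labels number them as biological replicates but give both the same tissue sample and donor identifier, so their spread can be technical. No genetic change or treatment is given, and sex was not recorded. The data hold no RNA, so the heart label could not be checked against marker genes, and a signal says nothing of whether a gene was transcribed. In whole tissue, binding in fewer cells and less binding per cell cannot be told apart.

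Clustered protocadherins are cell adhesion proteins that are best known from neurons, where each cell transcribes a few of them and the combination on its surface lets its branches recognise each other. Each Pcdha and Pcdhg gene has its own promoter and a large variable exon, which codes for the cadherin repeats and the membrane span. That exon is spliced to constant exons shared by the whole array. Pcdhb genes have single coding exons. The C-type members, Pcdhac1, Pcdhac2, Pcdhgc3, Pcdhgc4 and Pcdhgc5, lie at the ends of their arrays and are expressed more evenly among neurons than the alternate members. CTCF is a zinc finger protein that stops the loop-forming cohesin ring in an orientation-dependent way, and it is known to bind protocadherin promoters and distant enhancers in neurons.

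Binding was read from the authors' peak lists on the mm10 build. The optimal list holds 44533 peaks chosen by the irreproducible discovery rate (IDR), a measure of how well peak rankings repeat. Not every optimal peak has a summit in both libraries. The conservative list holds 43221 peaks chosen by the same method, and each of 3 relaxed lists holds the 300000 peaks called from 1 library or from both pooled. The signal of a peak is the deposited value of the caller. Its summit is the base of highest enrichment. A pooled signal is on a larger scale than that of a single library, so signals are ranked within a list. Where values of the 2 libraries, or of the optimal and pooled relaxed lists, are set side by side, they are as deposited, without scaling.

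An optimal CTCF summit lay within 1 kb of the annotated 5′ end of 31 of the 58 genes. The same was true of 21.4% of all protein-coding genes. The arrays differed: 20 of 22 Pcdhg genes had such a summit, against 7 of 22 Pcdhb genes and 4 of 14 Pcdha genes. Every one of the 12 Pcdhga and 7 Pcdhgb genes had one, and so did Pcdhgc3. The Pcdhb genes with a summit were Pcdhb3, Pcdhb4, Pcdhb11, Pcdhb16, Pcdhb17, Pcdhb20 and Pcdhb21. In the Pcdha array they were Pcdha4, Pcdha9, Pcdha11 and Pcdhac1. Among the 5 C-type genes, Pcdhac1 and Pcdhgc3 had a summit, and Pcdhac2, Pcdhgc4 and Pcdhgc5 had none. The genes are neighbours of common origin, not replicates, and their counts were not tested.

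The signals also differed between the arrays. The median pooled signal was 81.7 over the 20 Pcdhg summits, 38.6 over the 4 Pcdha summits and 19.2 over the 7 Pcdhb summits. The median member summit stood at the 46.9th percentile of the optimal list. Over all optimal peaks the median signal was 60.8, and at protein-coding 5′ ends with a summit it was 45.4. At or above the 50th percentile of the optimal list there were 13 Pcdhg summits, 1 Pcdha summit and 0 Pcdhb summits. The Pcdhb signals ranged from 13.5 to 31.4, and the Pcdhg signals from 18.4 to 126.8. Only Pcdhga1 among the Pcdhg genes fell within the Pcdhb range.

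**Figure D1:**
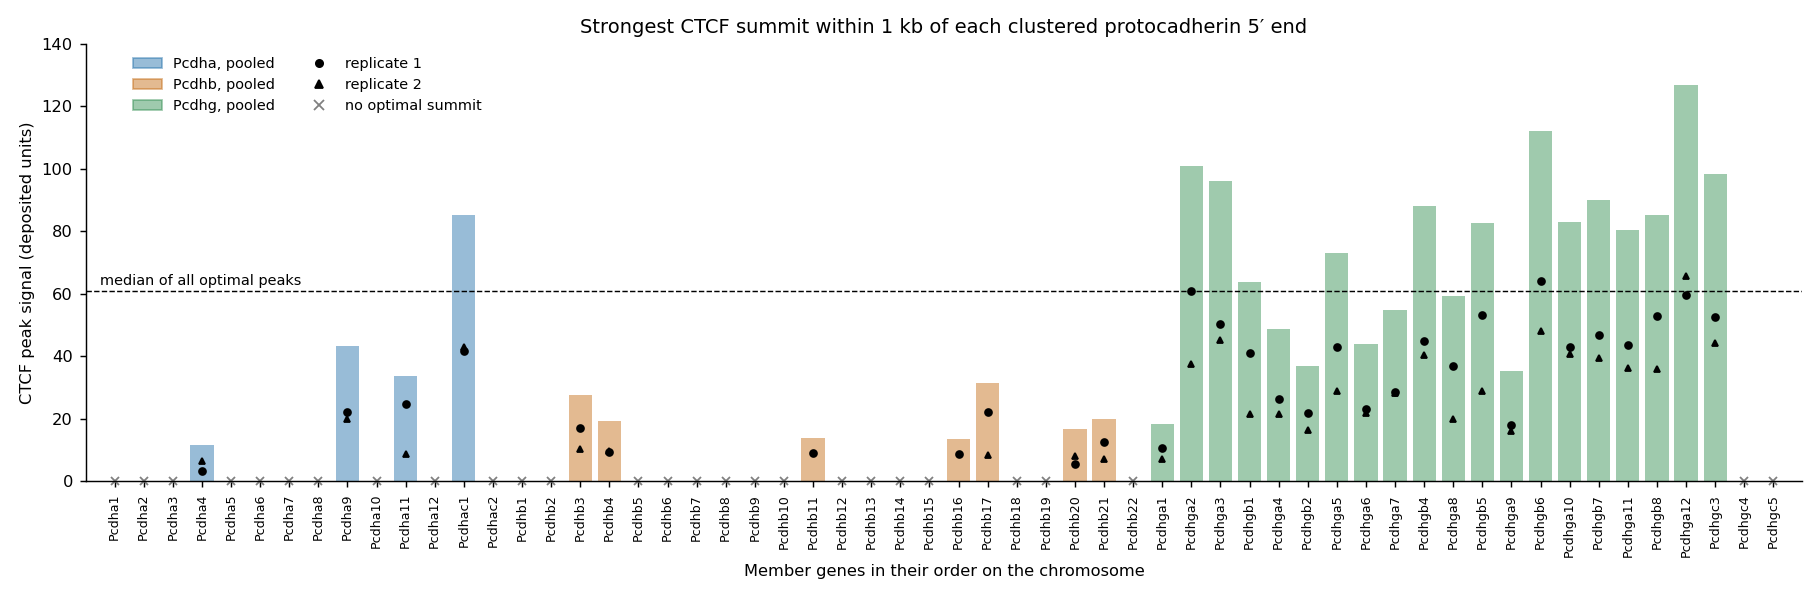
Deposited CTCF peak signal (y axis) at the strongest optimal summit within 1 kb of each of the 58 genes, in chromosomal order (x axis). Bars are the pooled list, circles replicate 1, triangles replicate 2, crosses genes with no optimal summit, and the dashed line is the median of all optimal peaks, 60.8. The Pcdhg bars form an almost unbroken block, with 13 above the line.

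The strongest gene of all was Pcdhga12, the last alternate member of the Pcdhg array, with a pooled signal of 126.8. Its signal was 59.6 in replicate 1 and 65.6 in replicate 2. Both libraries were high there, and the value stood at the 74.6th percentile of optimal peaks. Pcdhgb6 followed at 112.1, with 64.1 in replicate 1 and 48.1 in replicate 2. Pcdhga2, near the other end of the array, reached 100.8, with 61.0 in replicate 1 and 37.6 in replicate 2. These 3 genes do not hold 1 order: replicate 1 put Pcdhgb6 first and replicate 2 put Pcdhga12 first.

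Pcdhgc3, the only C-type gene of the Pcdhg array with an optimal summit, had a pooled signal of 98.3, from 52.5 in replicate 1 and 44.2 in replicate 2. Pcdhga3 had 96.0 pooled, from 50.5 and 45.2. Pcdhgb7 had 90.1 and Pcdhgb4 had 88.2. Pcdhac1, the first of the C-type genes of the Pcdha array, had 85.4 pooled, with 41.8 in replicate 1 and 43.0 in replicate 2, and is the only gene outside the Pcdhg array above the 50th percentile. Pcdhgb8, annotated as a polymorphic pseudogene, had 85.2, and Pcdhga10 had 82.9. These genes were close in signal, and the 2 libraries did not put them in 1 order: replicate 1 was highest at Pcdhgb8, with 53.0, and replicate 2 at Pcdhga3.

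At the low end stood Pcdha4, with a pooled signal of 11.6, from 3.26 in replicate 1 and 6.53 in replicate 2. Pcdhb16 had 13.5 and Pcdhb11 had 13.7 pooled. In replicate 1 their signals were 8.74 and 9.10, and replicate 2 had no relaxed summit within 100 bp of either. Pcdhb20 had 16.6, from 5.54 and 8.11. Pcdhga1, the first gene of the Pcdhg array, had 18.4, from 10.7 and 7.07. It stood far below its neighbour Pcdhga2 in both libraries. Pcdha4, Pcdhb11, Pcdhb16 and Pcdhb20 are also the 4 genes whose summit is missing from the conservative list, which in turn holds summits at Pcdha2 and Pcdha12.

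Of the 31 summits, 29 were found in both libraries and 24 of these had a lower signal in replicate 2. The median log2 ratio of replicate 2 to replicate 1 was -0.27 (SD 0.52, 29 summits). Optimal peaks of the same range of signal had a median of -0.24, and 70.1% of them were lower in replicate 2, so a shift of this size was present genome-wide. The widest gaps were at Pcdha11, with 24.8 in replicate 1 and 8.85 in replicate 2, and at Pcdhb17, with 22.3 and 8.29. Taking replicate 2 alone, limited to its strongest peaks in the number of the optimal list, 28 genes had a summit. Pcdha4, Pcdhb11, Pcdhb16, Pcdhb21 and Pcdhga1 were lost and Pcdha3 and Pcdhb10 gained. Taking replicate 1 alone, 32 genes had one, with Pcdha4 and Pcdhb20 lost and Pcdha2, Pcdha12 and Pcdhb19 gained.

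The summits sat at nearly the same place in each gene. Of the 31, 28 lay upstream of the annotated 5′ end and 27 of these within 150 bp of it. Of all protein-coding genes with a summit, 58.3% had it upstream and 26.8% within that 150 bp. Relative to the start codon of the variable exon, the 20 Pcdhg summits lay 186 to 262 bp upstream, with a median of 233.5 bp. The 7 Pcdhb summits lay 218 to 402 bp upstream, with a median of 242 bp. Pcdhb16 is the 1 at 402 bp, and without it the highest Pcdhb value was the 274 bp of Pcdhb11. In the Pcdha array the distances were 121 bp for Pcdha9, 174 bp for Pcdhac1 and 205 bp for Pcdha11.

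In Pcdhga12 and Pcdhb17 the annotated 5′ end lies farther from the start codon than in their neighbours. Their summits are therefore 318 and 122 bp after the 5′ end, but 219 and 242 bp before the start codon, as in the rest of their arrays. Pcdha4 is different. Its summit lies 576 bp after the 5′ end and 458 bp after the start codon, inside the coding part of the variable exon.

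**Figure D2:**
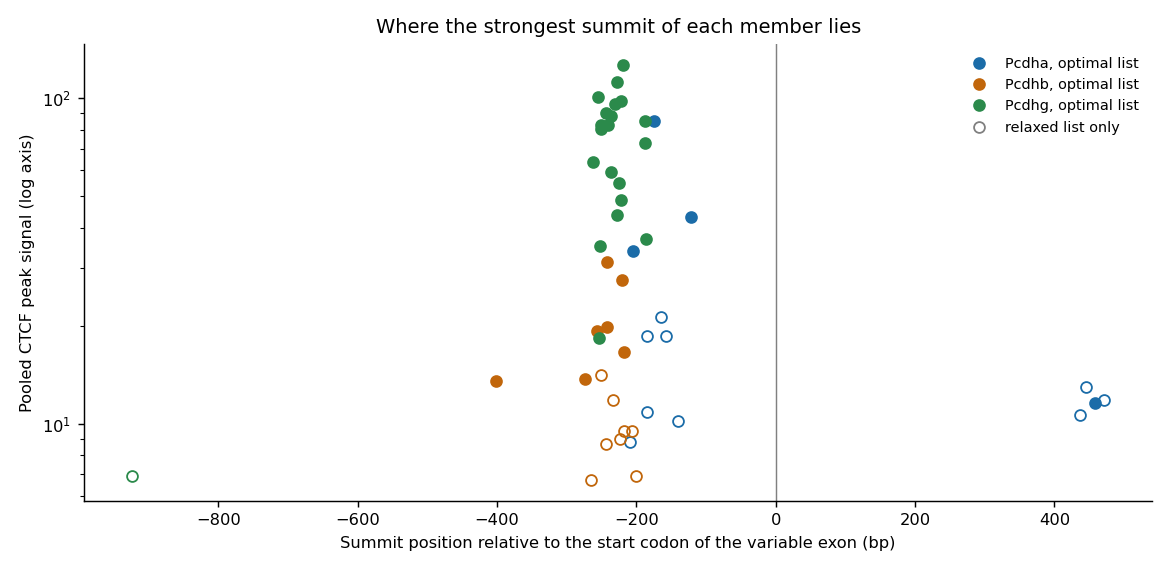
Position of the strongest summit of each gene relative to its start codon (x axis, bp, negative is upstream) against pooled signal (y axis, log scale). Filled points are optimal summits and open points are the 18 genes with a summit in the relaxed list only. Most points of all 3 arrays stand in a narrow column upstream of the start codon, and a second group of Pcdha points, with Pcdha4 at 458 bp, stands after it.

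Of the 27 genes without an optimal summit, 18 had a summit within 1 kb in the pooled relaxed list. Their signals were 6.71 to 21.3, with a median of 10.4, below the median of the optimal member summits. The ranges overlapped. In the Pcdha array the relaxed-only signals were 8.79 to 21.3 and the optimal ones 11.6 to 85.4. In the Pcdhb array they were 6.71 to 14.1 and 13.5 to 31.4. Counting optimal and relaxed summits together, 49 of the 58 genes had one: 13 Pcdha, 15 Pcdhb and 21 Pcdhg genes. The background for this list is high, at 58.6% of protein-coding genes, since it runs deep into weak peaks. Among the 31 genes with an optimal summit, 27 had it within 150 bp upstream of the 5′ end. The weak summits were found there less often, in 13 of the 18 genes, counted from the annotated 5′ end. In Pcdha5 that end is the start codon itself, and the weak summit lay 209 bp before it. In some of the 18 genes the strongest relaxed summit lay elsewhere, as in the exons of Pcdha7, Pcdha8 and Pcdha10. A relaxed summit lay in the 150 bp upstream of the 5′ end of 13 of the 27 genes, or 48.1%, against 7.80% of protein-coding genes that have no optimal summit within 1 kb. By array these were 7 of 10 Pcdha genes, 6 of 15 Pcdhb genes and 0 of 2 Pcdhg genes.

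Pcdha1, the first gene of the whole region, had a relaxed summit 83 bp upstream with a pooled signal of 10.8, from 4.46 in replicate 1 and 5.78 in replicate 2. Pcdha2 reached 18.7, from 10.98 and 7.57. Pcdha3 reached 18.6, from 6.16 and 13.4. Pcdha12, the last alternate Pcdha gene, reached 21.3, from 13.3 and 7.09, the highest of the 18. All 4 were present in both libraries, and replicate 2 was the higher one at Pcdha1 and Pcdha3 and the lower one at Pcdha2 and Pcdha12.

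Pcdhb22, the last gene of its array, had a relaxed summit with a pooled signal of 9.50, from 3.61 in replicate 1 and 5.30 in replicate 2. It lay 404 bp after an annotated 5′ end that is far upstream of the start codon. Pcdhb10 had 14.1, from 5.39 and 7.96, and Pcdhb19 had 11.9, from replicate 1 only. Pcdhb2, Pcdhb6, Pcdhb8, Pcdhb14 and Pcdhb15 had 6.71 to 9.48. The remaining relaxed-only genes were Pcdha5, Pcdha6, Pcdha7, Pcdha8 and Pcdha10, from 8.79 to 13.0, and Pcdhgc4, at 6.91 and 469 bp upstream of the 5′ end. Neither library alone had a summit within 100 bp of that of Pcdhgc4.

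The 9 genes with no summit in either list were Pcdhac2, Pcdhb1, Pcdhb5, Pcdhb7, Pcdhb9, Pcdhb12, Pcdhb13, Pcdhb18 and Pcdhgc5. Pcdhac2 and Pcdhgc5 are the last members of their arrays, and Pcdhb1 is the first of its own. Their nearest optimal summits were 53.5, 13.2 and 35.8 kb away. Sequence shared with other genes can hide binding, because reads that fit several places are often set aside. The share of 31-base words around the 5′ end that recur elsewhere in the genome was 0% for Pcdhac2, Pcdhb1, Pcdhb13, Pcdhb18 and Pcdhgc5. It was 16.1% for Pcdhb12, 14.7% for Pcdhb7, 13.9% for Pcdhb9 and 0.927% for Pcdhb5. Pcdhgb4, with a strong summit, had 29.5%, and the alternate Pcdha genes had 9.89 to 29.0%. The part of shared sequence in these counts was not tested beyond this.

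A second position stood out in the Pcdha array. In a window 500 to 650 bp after the 5′ end, chosen after the values were seen, the pooled relaxed list had a summit in 6 of the 12 alternate Pcdha genes. In the other arrays it had 1, at Pcdhb15, among 22 Pcdhb genes and 0 among 22 Pcdhg genes. Of all protein-coding genes, 6.55% had one. The 6 genes were Pcdha4, Pcdha7, Pcdha8, Pcdha10, Pcdha11 and Pcdha12, with pooled signals of 11.6, 13.0, 10.6, 11.8, 5.97 and 15.2. Signals were weak in both libraries: for Pcdha12 they were 8.51 in replicate 1 and 6.65 in replicate 2, and for Pcdha7 they were 5.73 and 7.33. At Pcdha8 and Pcdha11, replicate 2 had no summit. The Pcdha4 summit of the optimal list is the strongest summit of that gene and belongs to this group.

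The sequence of the exonic position matched the CTCF consensus closely. The 14-base core consensus of CTCF was searched on both strands in the same window with 20 bases added on either side. A core with at most 2 mismatches on the gene strand was found in 10 of the 12 alternate Pcdha genes. It was found in 0 of 22 Pcdhb genes, 0 of 22 Pcdhg genes and 2.91% of protein-coding genes outside the arrays. In 6 of the 10 the match had 0 mismatches, and 6 of the 10 had a relaxed summit there. Pcdha1 and Pcdha6 had a core with 0 mismatches in their exons and no relaxed summit in the window. The match is a description of the letters in the window.

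Matches to the consensus were fewer at the member summits than over all optimal peaks. Within 50 bp of the summit, 73.5% of all optimal peaks had a core with at most 2 mismatches. Windows 1000 bp off the summits had one in 2.94%. Of the 31 member summits, 4 had one, at Pcdha4, Pcdha9, Pcdhac1 and Pcdhb11. Each lay on the gene strand and each held a CpG, as did 33.5% of such cores over all optimal peaks. CpG is the dinucleotide whose methylation is known to hinder CTCF binding. Methylation was not measured here. Among the 20 Pcdhg summits 0 had such a core and 6 had one with at most 3 mismatches, against 91.3% of all optimal peaks.

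A 20-base weight matrix was made from 31246 cores at optimal peaks on the other chromosomes. Only cores with at most 2 mismatches to the consensus entered it, so it is not independent of the consensus search. Sites unlike the consensus score low by this choice. The matrix scores the best match in log2 odds, where a higher score is a closer match. The median best score within 50 bp was 15.3 over all optimal peaks and -1.69 in windows 1000 bp off the summits. It was 11.9 at the Pcdha summits, 9.20 at the Pcdhb summits and 1.60 at the Pcdhg summits. Only 5.04% of optimal peaks scored below that Pcdhg median. Pcdhga2, with a signal of 100.8, scored -2.75, and Pcdhga12 scored 3.50. Pcdhb11, with a signal of 13.7, scored 12.7. Over the 31 summits the Spearman correlation of score and signal was -0.43, and within the 19 Pcdhga and Pcdhgb summits it was 0.12. These describe sites that share libraries and ancestry.

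**Figure D3:**
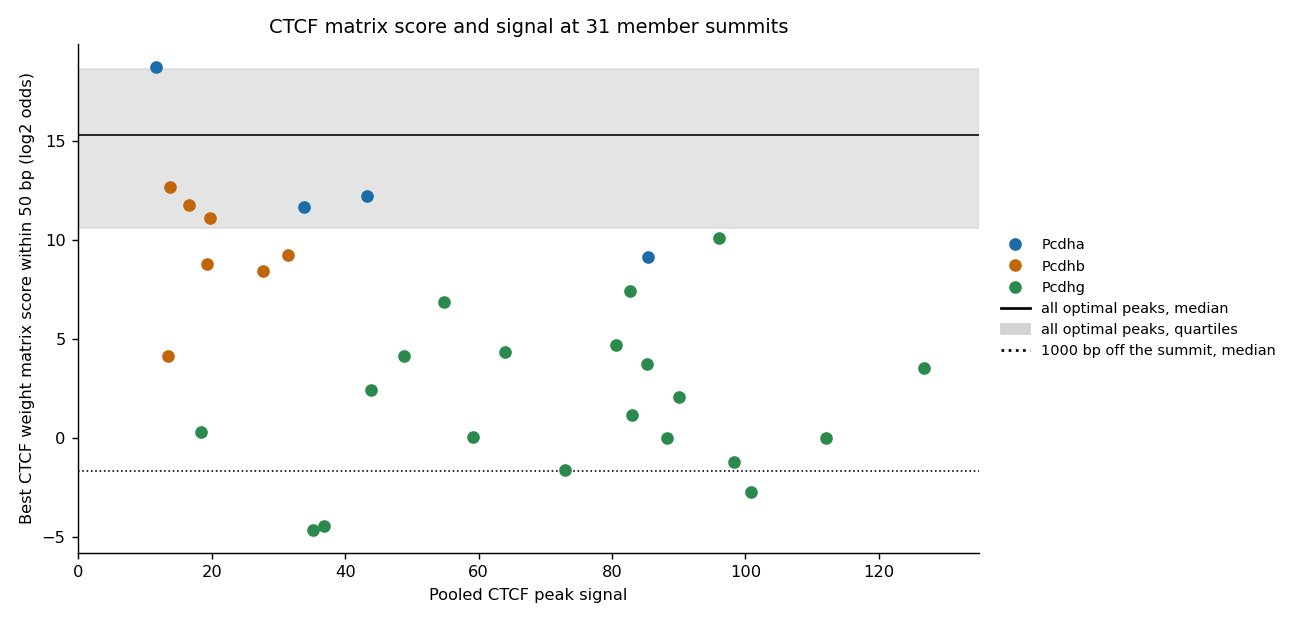
Best CTCF weight matrix score within 50 bp of the summit (y axis, log2 odds) against pooled signal (x axis) for the 31 member summits. The solid line and band are the median, 15.3, and quartiles of all optimal peaks, and the dotted line is the median 1000 bp off the summits, -1.69. Most Pcdhg points lie to the right of the Pcdhb points and below them, and all 7 Pcdhb points lie below the solid line.

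What the strong Pcdhg summits shared was a short motif, CGCT, which is known as the heart of the conserved element of protocadherin promoters. It was searched apart from the CTCF core, and the matches of both can overlap. On the gene strand, CGCT lay within 50 bp of 30 of the 31 member summits, with Pcdhb16 the exception. Of all optimal peaks, 19.4% had it on the plus strand and 18.9% on the minus strand. The motif holds a CpG, and the median CpG count within 50 bp was 4 at member summits and 1 over all optimal peaks. The shares were not matched for this. At all 20 Pcdhg summits the motif was present, 1 to 15 bp from the summit, and 185 to 252 bp before the start codon. Within 15 bp of the summit, 9.89% of all optimal peaks had it on the plus strand. It overlapped the best matrix match at 13 of these 20 summits, at all 4 Pcdha summits and at the 6 Pcdhb summits that had it. The motif is 4 bases long and common, so its presence alone says little about a site.

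**Figure D4:**
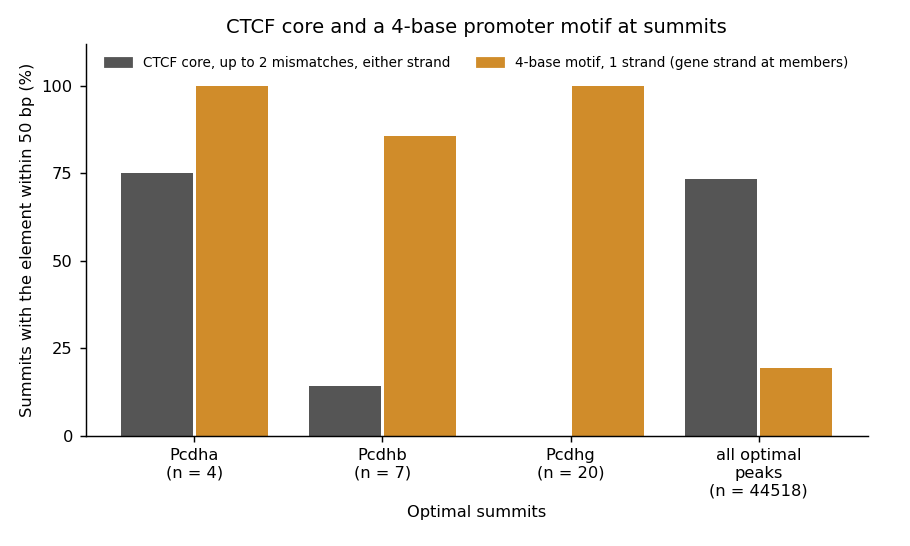
Percent of optimal summits (y axis) with a CTCF core of at most 2 mismatches on either strand (grey) and with the 4-base motif on 1 strand (orange) within 50 bp, for the 4 Pcdha, 7 Pcdhb and 20 Pcdhg summits and 44518 optimal peaks on assembled chromosomes. The Pcdhg summits have the motif at 100% and the core at 0, and all optimal peaks have the core at 73.5% and the motif at 19.4%.

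Promoters without an optimal summit were scored with the same matrix. In the 300 bases from 250 before the 5′ end, the median best score of the 15 Pcdhb genes without a summit was 9.27, beside 11.1 for the 7 with one. In the Pcdha array it was 9.34 over 10 genes without and 10.9 over 4 genes with a summit. Pcdhgc4 and Pcdhgc5, the 2 Pcdhg genes without a summit, had 2.56 and 0.862, and the 20 with one had a median of 2.79. In the Pcdha and Pcdhb arrays the ranges overlapped: Pcdhb18, with no summit in either list, had the highest score of all 58 genes at 13.1. Protein-coding genes outside the arrays had a median of 3.99 and a 95th percentile of 12.2. The best match lay on the gene strand in 54 of the 58 genes, against 52.6% of genes outside the arrays. In Pcdhac2, Pcdhb17, Pcdhb22, Pcdhga12 and Pcdhgc4 this window misses the usual distance from the start codon.

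Across the region, from 100 kb before Pcdha1 to 100 kb after the Pcdhg array (chr18:36830184-37941873), there were 42 optimal summits, or 37.8 per Mb. The rest of chromosome 18 had 15.9 per Mb, so the region was 2.38 times as dense. Most of this came from the Pcdhg array, with 116 summits per Mb, against 26.9 in the Pcdhb array and 15.5 in the Pcdha array. The Pcdha array was thus near the rate of the rest of the chromosome. The 100 kb after the Pcdhg array, outside the protocadherins, had 70 per Mb. Without the 100 kb on either side the ratio was 2.41. The Pcdhga and Pcdhgb summits followed each other at a median spacing of 5.30 kb, from 4.15 to 12.7 kb, which is the spacing of the genes. The 99.0 kb before Pcdha1 held 0 summits, and the nearest lay 127 kb before it. The longest gap within the region was 142 kb, between Pcdhb21 and the summit before Pcdhga1. Another stretch of 128 kb without a summit ran from Pcdhac1 past Pcdhac2 to the pair described next.

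**Figure D5:**
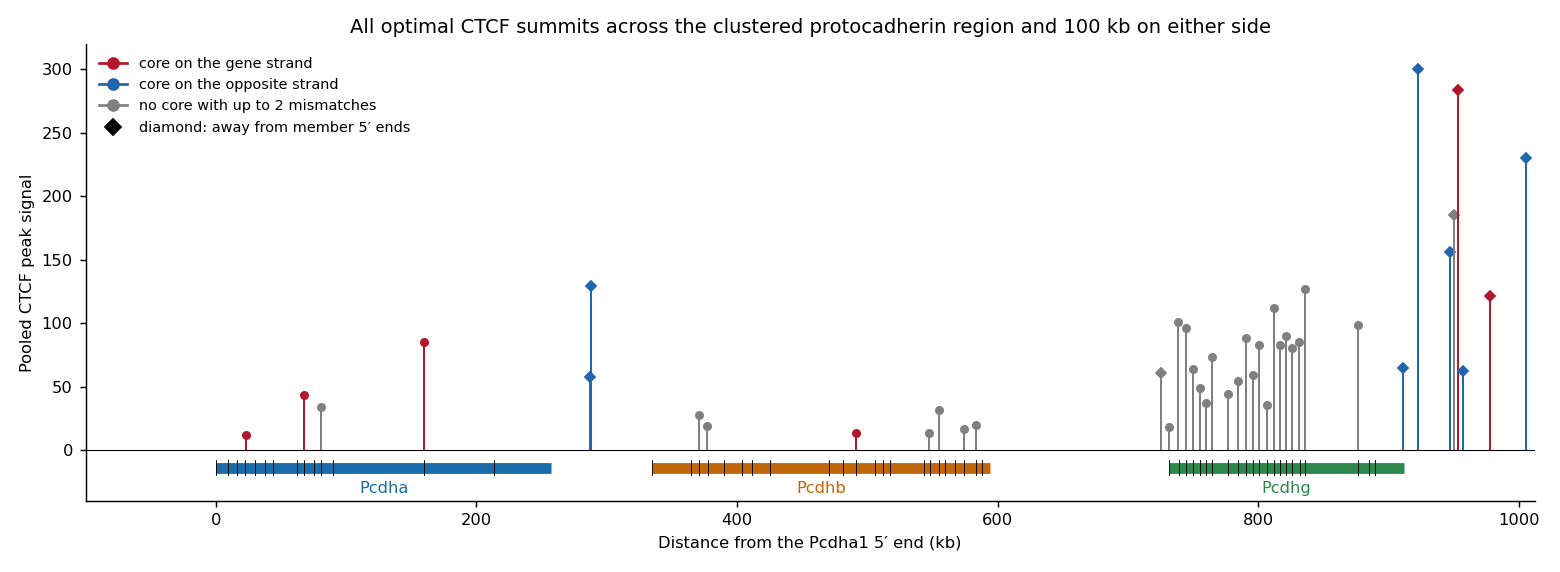
All 42 optimal summits of the region (x axis, kb from the Pcdha1 5′ end) by pooled signal (y axis). Circles are summits within 1 kb of a member 5′ end, diamonds are the 11 others, colours give the strand of the CTCF core, and black ticks on the bars mark gene 5′ ends. Red cores, on the gene strand, mark all 4 member summits with a core and 2 diamonds, and blue cores, on the opposite strand, mark 7 of the 11 diamonds.

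The other 11 summits lay away from member 5′ ends and had a median of 129 against 54.8 at the 31 members. The 7 of them after the Pcdhg array had a median of 186. Those between or within the arrays had 57.9, 129.3, 60.9 and 64.8, beside a Pcdhg member median of 81.7. The cores of the 11 mostly pointed the other way. Of the 11, 7 had a core with at most 2 mismatches on the strand opposite to the genes, 2 had one on the gene strand, and 2 had none. Of the 31 member summits, 4 had a core on the gene strand, 0 on the opposite strand and 27 none. By the best matrix match, which always gives a strand, 27 of 31 member summits were on the gene strand and 8 of the 11 others on the opposite one. At the Pcdhg summits these matches were weak, with a median score of 1.60 and a lowest of -4.64. The median in windows 1000 bp off the summits was -1.69, so a strand there need not mark a CTCF site.

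A pair of summits 926 bp apart lay between the Pcdha and Pcdhb arrays, where distant enhancers of Pcdha genes are known. The summit at position 37218420, which is 30.8 kb after the last Pcdha exon, had a pooled signal of 129.3, with 78.7 in replicate 1 and 49.9 in replicate 2. The one at position 37217494 had 57.9, with 32.3 and 24.5. Replicate 1 was the higher library at both. Each had a core with 1 mismatch on the strand opposite to the Pcdha genes. In the annotation both lie in introns of Gm37013, Gm37388 and Gm42416, read-through records that span the arrays.

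A single summit stood between the Pcdhb and Pcdhg arrays, at position 37655592 and 6.20 kb before Pcdhga1, in an exon of the long noncoding RNA gene 3222401L13Rik. Its signal was 60.9, with 35.1 in replicate 1 and 29.5 in replicate 2. At the other end of the Pcdhg array, a summit at position 37841477 lay in the last exon shared by all Pcdhg genes, 0.40 kb before its end. Its signal was 64.8, with 36.7 and 28.7, and its core had 1 mismatch on the opposite strand.

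The strongest binding of the region followed in the next gene, Diaph1, which codes for an actin-nucleating formin and is transcribed toward the Pcdhg array. The 100 kb after the array held 7 summits with a median signal of 186. The strongest of the whole region, in a Diaph1 intron at position 37852311, had a pooled signal of 300.02, with 166 in replicate 1 and 136 in replicate 2. It stood at the 99.7th percentile of optimal peaks, 10.44 kb after the array, and had a core with 1 mismatch on the strand opposite to the Pcdhg genes. A second, at position 37883649, had 283.7, with 154 and 133, and a core on the Pcdhg strand. The summit 196 bp upstream of the Diaph1 5′ end, had 230.4, with 116 and 113, and a core with 1 mismatch on the opposite strand. The libraries kept the order of these 3 summits.

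The other intronic Diaph1 summits of the strongest 8 away from members summits had 185.6, 156 and 121.6. The first of them, from 97.4 in replicate 1 and 89.0 in replicate 2, had no core and a matrix score that 0.177% of optimal peaks fell below. The others had cores on the opposite strand and on the gene strand. The last and weakest, at position 37887170, had 62.3, with 44.2 and 17.3, and a core with 0 mismatches on the opposite strand. Every Diaph1 summit stood above the 50th percentile of the optimal list.

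Other genes tied to the protocadherins were counted in the same way, beside the 21.4% of all protein-coding genes. Of 12 non-clustered protocadherins, which are single genes outside the arrays, 3, or 25%, had an optimal summit within 1 kb. They were Pcdh1 with a signal of 246.9, Pcdh9 with 27.5 and Pcdh8 with 15.5. Pcdh1 and Pcdh12 also lie on chromosome 18, after the region described above, with 5′ ends at positions 38212053 and 38284402. Of 14 known regulators of clustered protocadherin genes, 5, or 35.7%, had one, led by the cohesin genes Smc3 at 143 and Stag2 at 87.9. Of 10 genes for proteins that act with protocadherins at the membrane or below it, 4, or 40%, had one, led by Nckap1 at 65.2 and Axin1 at 64.4. Other kinds of tandem array had none: 0 of 53 keratin genes and 0 of 120 vomeronasal type 2 receptor genes. Among the clustered protocadherins, all 19 Pcdhga and Pcdhgb genes had a summit, but 27 of the 58 members had none. The lists were not tested.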

How the data were processed

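CTCF ChIP-seq of 2 libraries of newborn mouse heart was used as 5 narrowPeak lists on mm10. Per the labels and the deposited text files, the authors called the relaxed lists on each library and on both pooled, against a control alignment not used here, and derived the optimal and conservative lists by IDR. Neither an aligner nor a caller is given in the sources used here. Signal is the deposited value from the authors' caller, on an unstated scale. Read depth is not in these lists, so no counting interval was computed.

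Summits are the deposited peak start plus offset. The strongest summit within 1000 bp of a GENCODE M21 5′ end counted for a gene, and library values are the strongest summit within 100 bp. Of 2 records named Pcdha11, the first was called Pcdha10 from its RefSeq start. Cores allowed 2 mismatches within 50 bp, and the 20-base matrix used a pseudocount of 1 per base. Words of 31 bases were counted within 500 bp of each 5′ end. With 1 group there was no contrast, so nothing was tested; values are described beside all peaks or genes. Overlap, core and score routines were tested on simulated data (Python 3.11.15, NumPy 2.4.6).

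The members, lists and measures were chosen with earlier results of these data known. Named genes are the 10 strongest and 5 weakest with a summit, the C-type genes, the first and last of each array, those without a summit, and the 8 strongest summits away from members; others, such as those with exonic summits, were named after their values were seen.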

Additional observations from a re-analysis of the deposited data

How the results depend on the processing

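Of 53 recomputed values, 41 stayed within 1.5 times the reported count or within the spread of the libraries. Keeping only optimal peaks at or above the list's median signal left 14 genes with a summit: 1 Pcdha, 0 Pcdhb and 13 Pcdhg. A window of 10 kb gave 9 Pcdha and 13 Pcdhb genes, and the conservative list gave 4 Pcdhb genes. Leaving out 1 replicate in turn gave 28 to 32 genes, a density ratio of 2.41 to 2.58, and a median percentile of member summits of 44.7 to 46.9, beside 46.9 as reported. The density ratio was 2.54 with the conservative list and 2.78 with peaks at or above the median. With at most 3 mismatches, 14 of 15 member cores, or 93.3%, were on the gene strand, beside 4 of 4 with at most 2. For these the cause was not tested, beyond the fewer peaks or wider windows that the settings themselves bring. The share of all protein-coding genes moved with the setting too, to 9.03% with peaks at or above the median and to 50.8% at 10 kb. No paired analysis was possible because there is 1 group. Depth is not in the lists, so weak sites below the reach of these libraries cannot be told from unbound ones.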

Other observations

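The bases around the CGCT motif were also alike. Over the 24 bases flanking the motif nearest to the summit, 12 on either side, pairs of Pcdhg sites were identical at a median of 62.5% of positions, and pairs of Pcdhb sites also at 62.5%. The 4 Pcdha sites reached 37.5%, but they include the Pcdha4 site inside its coding exon and that of the C-type gene Pcdhac1. The Pcdha value is therefore not one of alternate promoters alone. Among 243 other optimal peaks of chromosome 18 with the motif on the plus strand the median was 25%. The best matrix matches of the 19 Pcdhga and Pcdhgb promoters were identical at a median of 40% of 20 bases. The alternate Pcdha and the Pcdhb genes had 75%. Each match was picked by its score, with medians of 3.18, 10.9 and 9.93 in these 3 sets. In Pcdhga9 the pick lay 239 bp before the 5′ end and in Pcdhga8 36 bp after it. The matrix shares thus do not compare the same position in each promoter. Both measures were chosen after the signals were seen and describe sequences of common origin.

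The motif was also present in most Pcdha and Pcdhb promoters without an optimal summit. From 180 to 260 bp before the start codon, a window set after its place at the summits was known, CGCT stood on the gene strand in 20 of the 20 Pcdhg genes with a summit and in 0 of the 2 without, Pcdhgc4 and Pcdhgc5. It stood in 7 of 7 Pcdhb genes with a summit and in 12 of 15 without. In the Pcdha array it stood in 3 of 4 with and in 7 of 10 without. The window was drawn to hold the motif at the summits, so high counts in genes with a summit follow from that choice. With and without a summit can therefore not be compared by it, and no share over other genes was computed for it. Over the 300 bases at the 5′ end, CGCT was found on the gene strand in 51 of 58 genes, beside 51.3% of protein-coding genes outside the arrays. On either strand it was found in 56 of 58, beside 67.4%.

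The best matrix match of the promoter held a CpG in 13 of 14 Pcdha, 19 of 22 Pcdhb and 13 of 22 Pcdhg genes, beside 52.2% of protein-coding genes outside the arrays. The 8 members whose best promoter score exceeded the 95th percentile of those genes were 3 with an optimal summit and 5 without.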
